A study of Mus musculus with 25 samples.

Results

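The effect of 100 µg of house dust mite extract on gene expression in the lung was compared between a 12-week and a 2-week model of allergic airway inflammation. For each gene the quantity examined was the difference of both effects, that is, the log2 fold change of 100 µg over saline at 12 weeks minus that at 2 weeks. Its members were the 20 libraries of these 4 groups, of 25 in the series, and the 19654 genes that passed a filter on low counts, of 55421 in the table. All mice were female, wild-type C57BL/6 by the labels (C57BL/6J in the sample labels and C57BL/6cmdb in the design text), and their age was not given in the sources used here. The 4 groups of 5 mice each received 100 µg of the extract intranasally in the 12-week model, saline in the 12-week model, 100 µg in the 2-week model and saline in the 2-week model. A label calls the saline mice untreated. Another 2-week group, on 10 µg, entered the filter on low counts, the scaling of libraries and the estimate of spread, but none of the contrasts.

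House dust mite extract is a mixture of proteases, lipid-binding allergens and microbial products that reaches the airway epithelium when inhaled. Epithelial alarmins then start a type 2 response, in which T helper cells, innate lymphoid cells and eosinophils act on mucus-producing epithelium, macrophages and fibroblasts. Repeated exposure adds antibody production, regulatory T cells and remodelling of collagen and smooth muscle. In such a comparison a positive difference means that the extract moved a gene upward more, or downward less, in the long model than in the short one.

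Libraries held 7231128 to 46167456 counts. The lowest total was that of replicate 4 of the 2-week saline group, in which 27.8% of counts were nuclear ribosomal RNA and 9.8% came from the mitochondrial genome. Mitochondrial genes took 2.5 to 4.21% of counts in the 12-week 100 µg libraries and 4.26 to 7.16% in those labelled saline at 12 weeks, against 3.27 to 6.64% in the 2-week 100 µg libraries and 1.99 to 3.59% in the other 4 libraries of 2-week saline. This share was thus lower with the extract at 12 weeks and, apart from replicate 4, mostly higher with it at 2 weeks. Its part in the results below was not tested. The fits with the share as a covariate, given beside those results, cannot separate it from the labelled treatment at 12 weeks. On the first principal component the 12-week 100 µg replicates 1 and 4 lay at 87.2 and 86.3 and replicates 2, 3 and 5 at 26.7, 37.2 and 40.9, whereas replicate 3 of those labelled saline at 12 weeks lay at 49.2 and its companions at 69.1 to 91.6. The lung markers Sftpc, of alveolar type 2 cells, and Scgb1a1, of club cells, were high in all 20 libraries, with at least 4919 and 5444 CPM, that is, counts per 1000000 after scaling of the libraries.

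The libraries labelled saline at 12 weeks went against that label. Muc5ac, the inducible airway mucin, stood at 41.8, 112, 38.1, 37.9 and 42.7 CPM in the 12-week 100 µg libraries 1 to 5 and at 139, 127, 64.8, 107 and 43.7 CPM in their 12-week counterparts labelled saline. At 2 weeks it stood at 0.529, 2.15, 1.26, 3.68 and 4.36 CPM with 100 µg and at 0.94, 0.747, 0.9, 4.37 and 0.934 CPM with saline. Both 12-week groups were therefore far above both 2-week groups, and the lowest Muc5ac value labelled saline at 12 weeks was above that of every 2-week library, dosed or not. Ighg1, the constant region of an antibody class made after immunisation, ran from 77.3 to 4381 CPM with 100 µg at 12 weeks and from 458 to 4783 CPM in the 12-week group labelled saline, against 0.324 to 2.29 CPM with 100 µg and 0.156 to 0.656 CPM with saline at 2 weeks. Retnla, a product of alternatively activated macrophages, ran from 484 to 1355 and 576 to 1301 CPM in the 12-week groups, in the same order, against 30.4 to 68.3 and 31.5 to 61.7 CPM in the 2-week groups. Every 12-week effect below, and with it every difference, is drawn against these libraries as labelled, and no 12-week control without these markers was among the 20. A called difference therefore says only that both labelled contrasts were unequal.

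In the difference 1624 genes were called at an adjusted p under 0.05 in edgeR's quasi-likelihood test, adjusted after Benjamini and Hochberg, which is 8.26% of those tested. Of these, 932 (4.74%) were higher and 692 (3.52%) were lower, and 5146 genes stood at an unadjusted p under 0.05. That excess of higher calls depended on the processing. It was not seen with DESeq2 size factors (768 higher and 759 lower) or with no filter on low counts (433 and 486). Removal of mitochondrial and ribosomal RNA genes gave 742 and 771. A stricter filter (858 and 821), DESeq2 (1255 and 1204) and the 20 libraries alone (491 and 487) gave similar counts both ways. The excess stayed with limma-voom (1141 and 806), the replicate number as a block (704 and 551) and the mitochondrial share as a covariate (1086 and 858). Offsets for GC content and length gave 1469 and 889. The median over all genes was -0.0026 log2. Changes were mostly moderate, with 96 higher and 257 lower genes differing at least 2-fold between the effects. Genes called higher had a median 12-week effect of 0.28 and a median 2-week effect of -0.28 log2, and genes called lower had -0.34 and 0.47. The 12-week effect was the larger one in 450 of the 932 higher and in 285 of the 692 lower genes, and the 2-week effect in the others. The single effects gave 1644 calls at 12 weeks (8.36%; 843 higher and 801 lower) and 1597 at 2 weeks (8.13%; 809 higher and 788 lower).

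**Figure D1:**
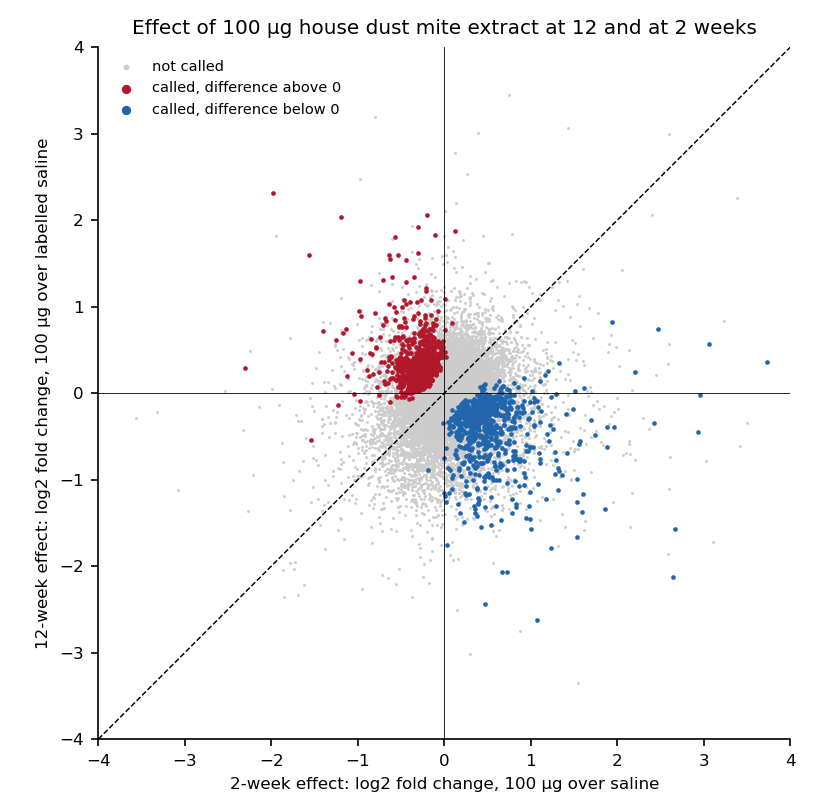
Each point is 1 gene, with the 2-week effect on the horizontal and the 12-week effect on the vertical axis, both as log2 fold changes of 100 µg over the group labelled saline, and the dashed line marks equal effects. Called genes lie in the upper left (932, difference above 0) and the lower right (692, difference below 0), and 6 genes, 2 of them called, fall outside the axes at 4 log2.

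The count of calls in the difference depended on single libraries of all 4 groups. Leaving out replicates 1, 2, 3 and 5 at 100 µg and 12 weeks gave 2602, 921, 785 and 777 calls, and it was 935 without replicate 1 of those labelled saline at 12 weeks, 1067 and 828 without replicates 3 and 4 at 100 µg and 2 weeks, and 951 and 1035 without replicates 2 and 3 of 2-week saline. Without the shallow 2-week saline replicate 4 it was 2242. The 12-week count of 1644 moved as much, to 3156, 31, 0 and 4 without replicates 1, 2, 3 and 5 at 100 µg, to 0, 0, 3500 and 987 without replicates 1, 2, 3 and 5 labelled saline at 12 weeks, and to 2843 without replicate 4 of 2-week saline. In the 3 fits with 0 calls in edgeR, 3981 to 4512 genes stood at an unadjusted p under 0.05. The 2-week count of 1597 moved to 611, 941, 737 and 1033 without replicates 2, 3, 4 and 5 at 100 µg and to 944 and 789 without replicates 2 and 3 of saline. The 12-week effect had 0 calls in edgeR with the mitochondrial share of counts as a covariate (3267 genes at an unadjusted p under 0.05). The 2-week effect had 4450 calls with this covariate, which was chosen after seeing the data. At 2 weeks the share was highest, at 9.8%, in saline replicate 4. At 12 weeks it did not overlap between groups, at 2.5 to 4.21% with 100 µg and 4.26 to 7.16% labelled saline. A fit with this covariate, here and below, therefore cannot tell the share from the labelled treatment at 12 weeks. In the difference itself 1944 genes were called with that covariate, of which 630 were among the 1624. Of the 80 genes named in the text and called in the difference, 46 were not called with it, 21 with a negative and 25 with a positive difference. Replicate labels do not say whether mice came from separate litters or cages, so p-values measure the spread between these mice.

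Opposite effects at both times, each called on its own, were found for 60 genes, 32 of them higher at 12 weeks and lower at 2 weeks and 28 the reverse. Another 24 genes were higher in both effects and 15 lower in both, so that 99 genes were called in both. These were 6.02% of the 12-week calls, where 8.13% of all genes tested were called at 2 weeks. They were 6.2% of the 2-week calls, where 8.36% of all genes were called at 12 weeks. The overlap was thus below the shares over all genes. Sowahc, an ankyrin repeat protein gene (ENSMUSG00000098188, chromosome 10, 59221953 to 59226434, plus strand, GRCm38), stood at 82.9, 67.6, 80.1, 72 and 73.8 CPM in the 12-week 100 µg libraries and at 55, 54.6, 60.8, 60.8 and 56.5 CPM in their 12-week counterparts labelled saline. The 2-week values were 68.4, 54.2, 55.7, 54.3 and 62.5 CPM with 100 µg and 87, 79.3, 75, 82.2 and 70.6 CPM with saline. No 100 µg value overlapped a saline-labelled one at either time, above at 12 weeks and below at 2 weeks. Its effects were 0.39 and -0.42 log2 at 12 and 2 weeks, and the difference was 0.80 (SE 0.11, adjusted p = 0.00379, edgeR's quasi-likelihood test).

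Others of the first orientation act in mitochondria, capillaries and collagen folding. Chchd2, a regulator of mitochondrial respiration, averaged 47.9 ± 5.32 CPM with 100 µg and 37 ± 1.98 CPM labelled saline at 12 weeks, against 40.1 ± 4.57 and 58.2 ± 8.85 CPM with 100 µg and saline at 2 weeks (SD, n = 5 each), a difference of 0.90 log2. Tomm7, of the import channel of the mitochondrial outer membrane, had effects of 0.47 and -0.42 log2 at 12 and 2 weeks, and Gcdh, which breaks down lysine in mitochondria, 0.38 and -0.42. Gpihbp1, which carries lipoprotein lipase to the wall of capillaries, had effects of 0.42 and -0.52 log2 and a difference of 0.93 (SE 0.17, adjusted p = 0.00523, edgeR). P4ha1, a subunit of the prolyl hydroxylase that stabilises collagen, had 0.37 and -0.47. Differences of Tomm7, Gcdh and P4ha1 were 0.89, 0.80 and 0.84 log2. With the mitochondrial share as a covariate Tomm7 and Gcdh were no longer called in the difference.

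Of the 6 genes named for the reverse orientation 4 are known from B cells. In bulk tissue fewer cells of a type and less RNA per cell cannot be told apart, here and for every marker below. Fcmr, the receptor for the constant part of IgM on B cells (ENSMUSG00000042474, chromosome 1, 130865669 to 130880791, plus strand, GRCm38), stood at 33.8, 41.6, 31.5, 28.4 and 27.6 CPM with 100 µg and at 53.9, 58.3, 43.9, 43.3 and 41.8 CPM in the libraries labelled saline at 12 weeks. At 2 weeks the values were 43.3, 38.1, 64.3, 43.6 and 35 CPM with 100 µg and 28.3, 33.3, 24.4, 25.4 and 34.6 CPM with saline. All 100 µg libraries lay below those labelled saline at 12 weeks, all lay above saline at 2 weeks, and the difference was -1.18 (SE 0.25, adjusted p = 0.00713, edgeR). Bcl11a, a transcription factor of B cell and plasmacytoid dendritic cell development, had effects of -0.89 and 0.73 log2, a difference of -1.62. Fcer2a, the low-affinity IgE receptor CD23, differed by -1.31, Fcrl1, an Fc receptor-like protein of B cells, by -1.06, and the zinc finger gene Zfp831 by -1.14. Mypopos, an RNA read from the strand opposite Mypop, differed by -1.56, but the strand setting of the counting was not given, so its reads and those of its partner may not be separate.

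**Figure D2:**
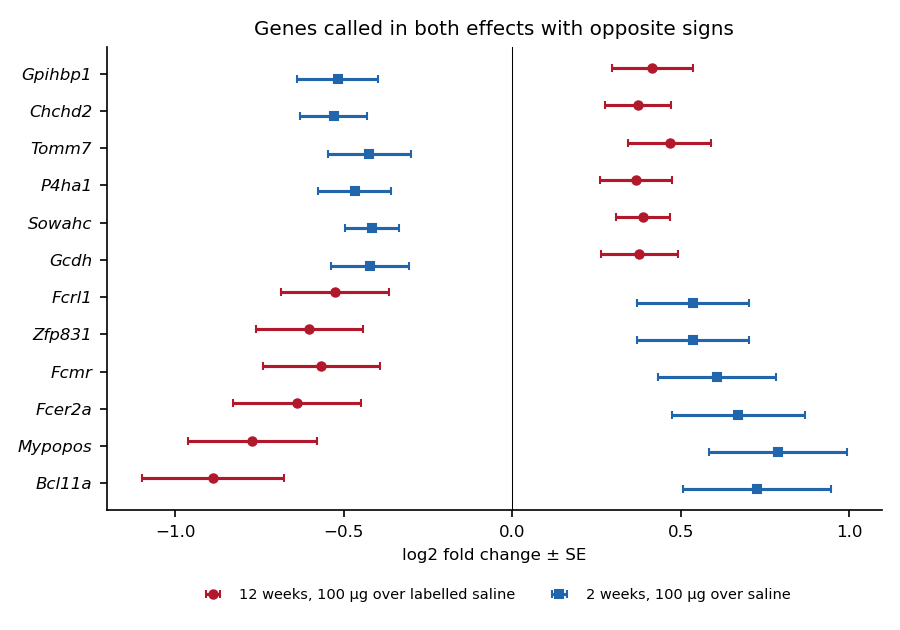
The 12 genes named for opposite effects run down the page, with the log2 fold change of 100 µg over the group labelled saline on the horizontal axis (circles, 12 weeks; squares, 2 weeks; bars, SE). Upper genes lie right of 0 at 12 weeks and left of it at 2 weeks, from Gpihbp1 with effects of 0.42 and -0.52, and lower genes lie the other way, to Bcl11a with -0.89 and 0.73.

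Of the 61 gene lists examined, that of B cell markers had the largest share of members called lower. Of 14 tested, 10 were called lower and 0 higher, against 3.52% lower over all genes, and the list's median difference was -1.08 log2, against -0.0026 over all genes. At 12 weeks 4 of the 14 were lower, and at 2 weeks 6 were higher. The shares called in either direction over all genes were 8.36% at 12 weeks and 8.13% at 2 weeks. Spib, a transcription factor of B cells and of plasmacytoid dendritic cells, averaged 30.8 ± 7.88 CPM with 100 µg and 40.0 ± 2.09 CPM labelled saline at 12 weeks, against 25.7 ± 8.04 and 12.2 ± 2.7 CPM at 2 weeks (SD, n = 5 each). Its difference of -1.42 (SE 0.28, adjusted p = 0.00609, edgeR) came mainly from the 2-week effect of 1.04, beside -0.38 at 12 weeks. The 100 µg libraries at both times had similar levels of the list, 0.17 to 0.80 log2 above the 2-week saline mean at 12 weeks and 0.07 to 0.89 at 2 weeks, while those labelled saline at 12 weeks lay at 0.79 to 1.25. Cr2, the complement receptor CD21, had the largest 12-week effect of the members, -1.16 log2, beside 0.05 at 2 weeks, a difference of -1.21 that lost its call in 10 of the 20 fits that leave out 1 library. Without the shallow 2-week saline library 12 were called lower, and with the mitochondrial covariate 7, Cr2 not among them.

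Antibody and lymphoid aggregate genes gave fewer calls in the same direction. Among 20 plasma cell and immunoglobulin genes 3 were called lower, against 3.52% over all genes, and 0 higher, with a median of -0.84. That count was 6 without replicate 1 at 100 µg and 12 weeks, 5 without replicate 3 of those labelled saline at 12 weeks and 1 with the mitochondrial covariate. Ighd, the constant region of IgD on naive B cells, averaged 52.8 ± 9.08 CPM with 100 µg and 89.6 ± 24.6 CPM labelled saline at 12 weeks, against 88 ± 16.8 and 62.9 ± 10.7 CPM at 2 weeks, a difference of -1.25 (SE 0.27, adjusted p = 0.00816, edgeR). Ighm, of IgM, differed by -1.60, a call lost with the mitochondrial covariate and in 14 of the 20 fits that leave out 1 library, and its replicate 1 at 100 µg and 12 weeks held 1710.0 CPM where the other 4 held 376 to 862. Reads of near-identical immunoglobulin segments may be shared among genes. Of 12 germinal centre and lymphoid aggregate genes 3 were lower and 0 higher, a count of 5 without replicate 1 at 100 µg and 12 weeks and of 1 without replicate 3 or 5 of that group, replicate 2 of those labelled saline at 12 weeks, replicate 3 or 4 at 100 µg and 2 weeks, or replicate 1 or 3 of 2-week saline.

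Foxp3, the transcription factor that defines regulatory T cells (ENSMUSG00000039521, chromosome X, 7573644 to 7595245, plus strand, GRCm38), had the largest negative difference in both T cell lists. It stood at 2.16, 1.65, 1.83, 2.93 and 2.23 CPM in the 12-week 100 µg libraries and at 7.32, 6.66, 4.44, 3.14 and 5.03 CPM in their counterparts labelled saline. In the 2-week model it stood at 1, 0.847, 1.3, 1.12 and 1.31 CPM with 100 µg and at 0.587, 0.264, 0.485, 1.09 and 0.778 CPM with saline. Every 12-week 100 µg library lay below every one labelled saline, while the 2-week groups overlapped only through the shallow saline replicate 4 at 1.09. The 12-week effect was -1.30 (adjusted p = 0.0179) and the 2-week effect 0.98 (adjusted p = 0.0638), and the difference of -2.28 (SE 0.43) had an adjusted p of 0.00539 in edgeR. It was called in all 20 fits that leave out 1 library and not with the mitochondrial covariate. Il2ra, the IL-2 receptor chain that regulatory T cells carry, differed by -0.88, and Trac, the constant region of the T cell receptor alpha chain, by -0.89, each losing its call in 11 of those 20 fits. Foxp3 and Il2ra were the 2 of 18 regulatory and effector T cell genes called, and Trac was among 2 of 19 T cell markers called, all lower, against 3.52% lower over all genes. The count of 2 T cell markers was 4 without replicate 1 at 100 µg and 12 weeks, 1 without replicate 4 at 100 µg and 2 weeks, and 0 with the mitochondrial covariate, with the replicate number as a block, or without replicates 2, 3 or 5 at 100 µg and 12 weeks, replicates 1 or 2 labelled saline at 12 weeks, replicates 3 or 5 at 100 µg and 2 weeks or replicates 1, 2 or 3 of 2-week saline. Il2ra was not called with that covariate either.

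Single chemokine and antigen presentation genes were called lower. Of 16 eosinophil and monocyte chemokines 2 were lower and 0 higher, and 0 with the mitochondrial covariate, and of 15 dendritic cell markers 2 were lower and 1 higher, against 3.52% lower over all genes. Ccl28, a mucosal chemokine that attracts antibody-secreting cells and eosinophils (ENSMUSG00000074715, chromosome 13, 119623819 to 119654359, plus strand, GRCm38), had the largest negative difference of the genes named by size. Its values were 0.438, 0.306, 0.61, 0.0806 and 0.303 CPM with 100 µg and 2.53, 2.66, 1.18, 2.1 and 2.33 CPM labelled saline at 12 weeks. The 2-week values were 0.382, 0.397, 1.63, 0.724 and 1.51 CPM with 100 µg and 0.94, 0.329, 0.415, 0.437 and 0.156 CPM with saline. The 12-week groups did not overlap, the 2-week groups did, and the difference was -3.70 (SE 0.71, adjusted p = 0.00596, edgeR) at levels of under 3 CPM, a call lost with the mitochondrial covariate. Ccl22, a dendritic cell and macrophage chemokine that draws type 2 and regulatory T cells, differed by -1.16 without a call under that covariate, and Fscn1, an actin-bundling protein of mature dendritic cells, by -1.13 with effects of -0.10 and 1.03 log2 at 12 and 2 weeks. Of 12 MHC class II genes 3 were lower and 0 higher (median -0.55), among them Ciita, the master regulator of the class, at -0.68 with effects of -0.27 and 0.42. Without replicate 5 at 100 µg and 12 weeks, replicate 4 at 100 µg and 2 weeks or replicate 1 of 2-week saline the difference of Ciita was -0.64 in each fit and no longer called. That list count of 3 was 7, 5, 5 and 6 without replicate 1 at 100 µg and 12 weeks, replicate 3 of those labelled saline at 12 weeks, replicate 1 at 100 µg and 2 weeks and replicate 5 of 2-week saline, was 0 without replicate 5 at 100 µg and 12 weeks or replicate 1 of 2-week saline, was 1 without replicate 3 or 4 at 100 µg and 2 weeks or replicate 3 of 2-week saline, and was 8 with the mitochondrial covariate.

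**Figure D3:**
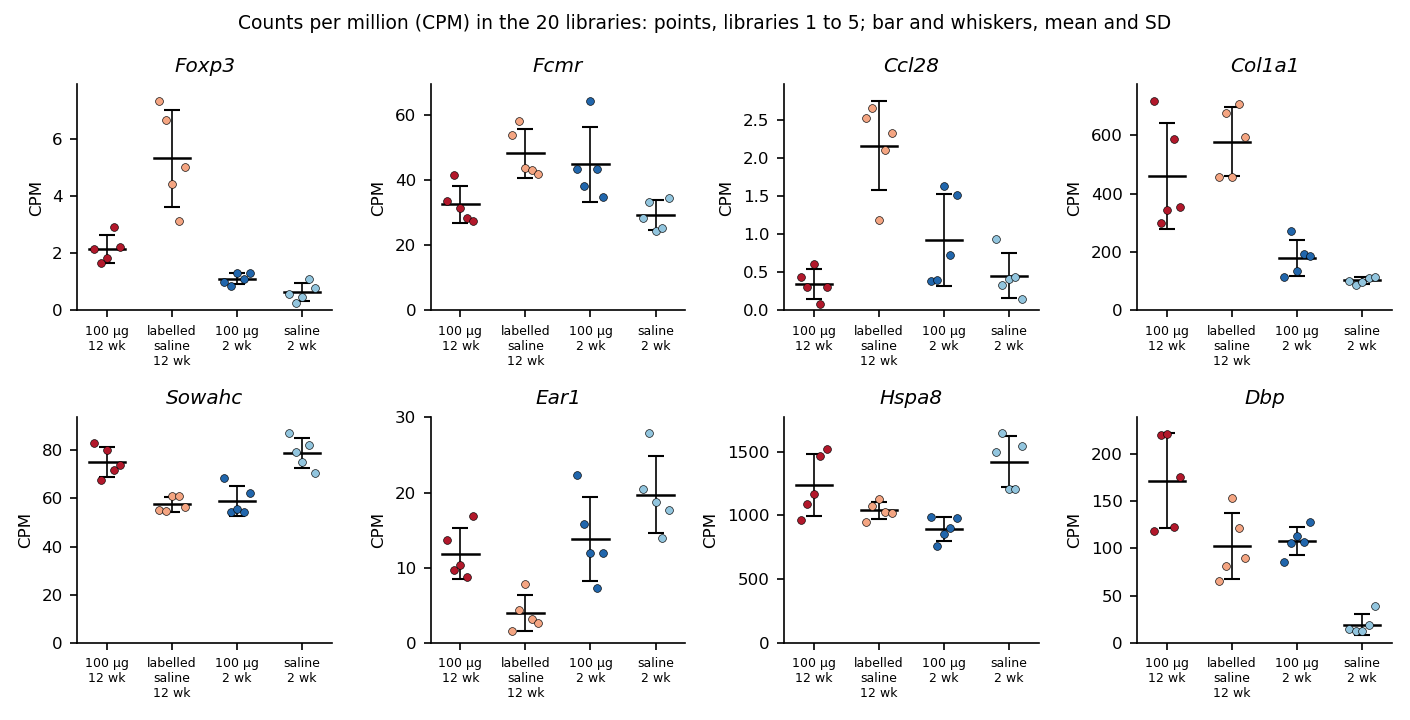
Each panel gives 1 gene in CPM on a linear axis from 0, with points for the 5 libraries of the 4 groups and bars for mean and SD. Foxp3, Fcmr and Ccl28 were lower with 100 µg than in the libraries labelled saline at 12 weeks, Sowahc and Ear1 were higher, and for Hspa8 and Dbp the gap was wider at 2 weeks.

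Further large negative differences were spread over many functions. Nos2, the inducible nitric oxide synthase, averaged 8.99 ± 5.13 CPM with 100 µg and 19.7 ± 8.92 CPM labelled saline at 12 weeks, against 3.87 ± 1.24 and 1.94 ± 0.408 CPM at 2 weeks, a difference of -2.13 (SE 0.51, adjusted p = 0.0143, edgeR). Mucl1, a small mucin-like secreted protein, ran from 0.244 to 2.03 CPM with 100 µg and from 2.56 to 7.98 CPM labelled saline at 12 weeks, and stayed under 1 CPM in every 2-week library, with a difference of -2.91 that was not called without replicate 5 at 100 µg, at -2.83 for the one of 12 weeks and -2.11 for that of 2 weeks. Ksr2, a scaffold of the Ras and MAP kinase cascade, differed by -3.02 and the adhesion gene Ceacam19 by -2.43. In the 12-week 100 µg group Ksr2 was high in replicates 1 and 4, at 3.16 and 2.23 CPM, and at most 0.659 CPM in replicates 2, 3 and 5. Hsd11b2, which inactivates corticosterone, differed by -2.17, Dnase1l3, a nuclease of macrophages and dendritic cells that digests free chromatin, by -2.14, the linker histone gene H1fx by -1.97 and Sox9, a transcription factor of epithelial progenitors, by -1.86. The call of Ceacam19 was lost in 13 of the 20 fits that leave out 1 library, and with the mitochondrial covariate Ksr2, Mucl1, Ceacam19, Dnase1l3, H1fx and Sox9 were not called.

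Rps16, of the small ribosomal subunit (ENSMUSG00000037563, chromosome 7, 28350652 to 28353155, plus strand, GRCm38), differed by -1.96 (SE 0.47, adjusted p = 0.0138, edgeR). It stood at 161, 179, 169.9, 144 and 156 CPM with 100 µg and at 120.3, 101, 164, 155 and 145 CPM labelled saline at 12 weeks. In the short model the values were 79.9, 107, 89.6, 107 and 105 CPM with 100 µg and 36.2, 4.63, 9.45, 25.6 and 31.8 CPM with saline. The 2-week saline libraries were the lowest, all of them below every other library. With the mitochondrial covariate it was not called. Ribosomal protein genes have many near-identical copies, so its reads may be shared with them.

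Alveolar macrophage genes were among those with the largest positive differences. Ear1, a ribonuclease of eosinophils and alveolar macrophages (ENSMUSG00000072601, chromosome 14, 43818765 to 43875517, minus strand, GRCm38), stood at 13.7, 9.74, 10.3, 8.71 and 16.9 CPM with 100 µg and at 1.59, 4.33, 7.83, 3.17 and 2.68 CPM labelled saline at 12 weeks. At 2 weeks it stood at 22.3, 15.9, 11.9, 7.24 and 11.9 CPM with 100 µg and at 20.4, 27.9, 18.7, 14 and 17.6 CPM with saline. The 12-week 100 µg libraries lay above all those labelled saline, the 2-week groups overlapped, and the difference was 2.13 (SE 0.43, adjusted p = 0.00654, edgeR). Reads may be shared with other members of its family of close copies. Fabp1, a fatty acid-binding protein known from liver that is also a marker of alveolar macrophages, averaged 3.86 ± 2.29 and 1.13 ± 0.939 CPM with 100 µg and labelled saline at 12 weeks, against 8.37 ± 4.11 and 12.2 ± 4.24 CPM at 2 weeks, a difference of 2.36 that was 2.07 and not called without replicate 5 at 100 µg and 12 weeks. Krt79, a keratin listed with these markers, differed by 1.99 and Plet1, a surface protein of alveolar macrophages, by 0.73. These 4 were called higher of 14 markers and 0 were lower, against 4.74% higher over all genes, and the list's median was 0.39. Without replicate 5 at 100 µg and 12 weeks 2 were called, and with the mitochondrial covariate, under which Fabp1 and Krt79 were not called, also 2. Plet1 lost its call in 14 of the 20 fits that leave out 1 library. Of the summed marker list of eosinophils, which holds Ear1 as well, the medians were 595 CPM with 100 µg and 751 CPM labelled saline at 12 weeks, against 506 and 577 CPM at 2 weeks, and Ear1 was the 1 member of 11 called.

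Other genes with large positive differences ranged from low to moderate levels. Lrat, which esterifies retinol for storage, averaged 124 ± 52.6 CPM with 100 µg and 50.3 ± 14.1 CPM labelled saline at 12 weeks, against 131 ± 40.2 and 215 ± 39.8 CPM at 2 weeks, a difference of 2.02 (SE 0.42, adjusted p = 0.00703, edgeR). Zfp970, a zinc finger gene, differed by 1.87, with every 2-week 100 µg library (15.4 to 43.8 CPM) below every saline one (50.5 to 104 CPM). Fpr1 and Fpr2, receptors by which phagocytes sense formylated bacterial peptides, differed by 1.93 and 1.94, and Il18, a cytokine stored by macrophages and epithelium, by 1.45 (SE 0.32, adjusted p = 0.00957, edgeR). Genes best known from liver and at most 3 CPM here were Fgg, the fibrinogen gamma chain, at 2.27, Asgr1, a receptor for desialylated glycoproteins, at 2.23, Otc, of the urea cycle, at 1.87, and the serine protease inhibitor gene Serpina3m at 2.12. Cst8, a cystatin, differed by 2.18. Serpina3m and the Fpr genes have close copies, with which reads may be shared. Calls of Fgg, Asgr1, Otc, Serpina3m, Fpr1 and Fpr2 were lost in 13, 14, 13, 11, 15 and 14 of the 20 fits that leave out 1 library, and with the mitochondrial covariate neither these 6 nor Cst8 were called.

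Markers of the gas-exchange wall gave calls in the higher direction, though each list also held members with negative differences. Positive and negative members numbered 12 and 6 for endothelium, 11 and 5 for fibroblasts, and 8 and 3 for alveolar type 1 cells. The lowest differences were -1.37, -0.60 and -0.40 log2, in the same order. Among 18 endothelial markers 4 were called higher and 0 lower (median 0.27), and among 16 fibroblast markers 5 and 0 (median 0.26). Among 11 markers of alveolar type 1 cells it was 3 and 0 (median 0.42). Over all genes 4.74% were higher and 3.52% lower. Hopx, of alveolar type 1 cells, averaged 256 ± 77.4 CPM with 100 µg and 146 ± 36.8 CPM labelled saline at 12 weeks, against 295 ± 29 and 341 ± 56.5 CPM at 2 weeks (SD, n = 5 each), a difference of 1.02 (SE 0.25, adjusted p = 0.0142, edgeR). Cav1, the coat protein of caveolae in thin epithelium and endothelium, differed by 0.69. Cldn5, the tight junction claudin of endothelium, differed by 0.87, and Tek, the angiopoietin receptor, by 0.76. Inmt, a methyltransferase of lung fibroblasts, differed by 1.40 and Pdgfra, a growth factor receptor of alveolar fibroblasts, by 0.61. In the 12-week groups Inmt was low in replicates 1 and 4 at 100 µg, at 509 and 341 CPM where the other 3 held 895 to 932, and high in replicate 3 of those labelled saline, at 624 CPM where the other 4 held 192.5 to 281. The difference of Cldn5 was 0.78 and not called without replicate 5 at 100 µg and 12 weeks or without replicate 2 of 2-week saline. Counts with the mitochondrial covariate were 2 higher and 1 lower of 18, 1 higher and 1 lower of 16 and 2 higher and 0 lower of 11, without calls for Hopx, Cldn5, Tek, Inmt and Pdgfra, and the endothelial count was 8 without replicate 1 at 100 µg and 12 weeks. The fibroblast count of 5 was 2 or 3 in all fits that leave out 1 library but those without replicates 1 or 4 at 100 µg and 12 weeks, replicate 3 labelled saline at 12 weeks, replicate 1 at 100 µg and 2 weeks or replicates 4 or 5 of 2-week saline.

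Genes for oxidative phosphorylation encoded in the nucleus were called higher in 11 of 24 tested, against 4.74% higher over all genes. Of these 24, 0 were called lower, and the median was 0.44 log2. All 24 had a positive difference. Cox4i1, a subunit of cytochrome c oxidase (ENSMUSG00000031818, chromosome 8, 120668222 to 120674207, plus strand, GRCm38), stood at 119, 134, 143, 150.0 and 139 CPM with 100 µg and at 86.4, 96.9, 114, 113 and 103 CPM labelled saline at 12 weeks. The 2-week values were 93.3, 108, 86.4, 84 and 96.5 CPM with 100 µg and 105, 117, 116, 115 and 114 CPM with saline. All 12-week 100 µg libraries lay above those labelled saline, the 2-week groups overlapped, and the difference was 0.69 (SE 0.12, adjusted p = 0.00379, edgeR). Ndufb3, of complex I, differed by 0.65, a call lost with the mitochondrial covariate. Genes of the mitochondrial genome itself had 0 calls of 10 in edgeR, with 0 at an unadjusted p under 0.05 and 0 calls in limma-voom and DESeq2, and their median was -0.55. Without the shallow replicate 4 of 2-week saline, which held the highest mitochondrial share, 8 of the 10 were called lower and the median was -1.50, and with the mitochondrial covariate 2 were called higher. The count of 11 became 2, 3 and 3 on leaving out replicates 2, 3 and 5 at 100 µg and 12 weeks, 4, 7 and 7 without replicates 1, 2 and 5 of those labelled saline at 12 weeks, 4 and 2 without replicates 3 and 4 at 100 µg and 2 weeks, 4 each without replicates 2 and 3 of 2-week saline. It was 2 with the mitochondrial covariate, 4 without a filter on low counts and 6 when only the 20 libraries were fitted.

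Cytosolic ribosomal protein genes gave 8 higher calls and 1 lower, that of Rps16, among 28 tested, with a median of 0.46. Over all genes 4.74% were higher and 3.52% lower. Rpl5, which binds the 5S ribosomal RNA, averaged 264 ± 17.8 CPM with 100 µg and 223 ± 4.17 CPM labelled saline at 12 weeks, against 234 ± 15.6 and 280.4 ± 13.8 CPM at 2 weeks, a difference of 0.51 (SE 0.09, adjusted p = 0.00523, edgeR). At 12 weeks every 100 µg library was above every one labelled saline, and at 2 weeks every 100 µg library was below. Rpl22 differed by 0.64. Without the shallow replicate 4 of 2-week saline 18 were called higher, and with the mitochondrial covariate 3.

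In the list of inducible heat-shock genes 8 of 12 were called higher and 0 lower, with a median of 0.91 log2. The list also holds Hspa8, which unstressed cells express, and its members Hspa1a and Hspa1b were not called. The share called higher over all genes was 4.74%. Hspa8, the main cytosolic HSP70 of unstressed cells (ENSMUSG00000015656, chromosome 9, 40800984 to 40810087, plus strand, GRCm38), stood at 964, 1088, 1164, 1469 and 1519 CPM with 100 µg and at 948, 1076, 1131, 1024 and 1016 CPM labelled saline at 12 weeks. In the 2-week model it stood at 986, 758, 851, 901 and 979 CPM with 100 µg and at 1500.0, 1643, 1209, 1209 and 1545 CPM with saline. The 12-week groups overlapped and every 2-week 100 µg library lay below every saline one, so that the effects were 0.26 and -0.67 log2 and the difference 0.92 (SE 0.18, adjusted p = 0.00609, edgeR). Hsp90aa1, the inducible HSP90, differed by 1.00 with effects of 0.25 and -0.76, and Hspd1, the mitochondrial chaperonin, by 0.61 with 0.24 and -0.37. Hspb1, a small heat-shock protein, differed by 0.97 and had effects of 0.60 and -0.38, the first of which was called. Among the 12-week 100 µg libraries the level of the list varied widely, from -0.66 log2 in replicate 1 to 0.32 in replicate 5 relative to the 2-week saline mean. In fits that leave out 1 library 6 to 10 members were called higher, with the mitochondrial covariate 6, Hspb1 not among them, and without the shallow saline library 8.

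Heat-shock promoters are known for binding sites of the factor HSF1. Its core, GAANNTTC, was searched in the 250 bases before the start of each gene in RefSeq promoters of GRCm38.p6. The motif reads the same on both strands and does not overlap the CACGTG searched below. A gene was counted where any of its listed starts held the motif. It was found in 6 of the 10 heat-shock genes with a promoter in the table and in 6.19% of 12821 tested genes with one, in 6.66% of those called higher and in 5.24% of those called lower. Promoters of Hspb1 (chr5:135887669-135887918, plus strand) and Hspd1 (chr1:55087933-55088182, minus strand) are shown, 5′ to 3′ on the strand of the gene with the motif in capitals, because both genes were called and both hold it.
Hspb1: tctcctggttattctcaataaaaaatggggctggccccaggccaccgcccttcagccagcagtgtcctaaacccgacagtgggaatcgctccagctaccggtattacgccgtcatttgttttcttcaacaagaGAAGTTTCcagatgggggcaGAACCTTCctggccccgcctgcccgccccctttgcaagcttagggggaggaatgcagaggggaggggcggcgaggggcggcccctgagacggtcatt
Hspd1: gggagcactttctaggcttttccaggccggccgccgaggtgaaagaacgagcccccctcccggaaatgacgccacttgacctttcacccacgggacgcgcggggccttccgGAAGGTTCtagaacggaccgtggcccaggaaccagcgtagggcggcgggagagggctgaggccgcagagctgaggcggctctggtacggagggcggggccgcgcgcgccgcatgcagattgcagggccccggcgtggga
In Hspb1 the motif starts 117 and 97 bases before the start of the gene and in Hspd1 139 bases before that start. Hspe1, the partner of Hspd1 in the chaperonin, is read from the opposite strand of nearly the same bases, so both share this match. Hspe1, Hspa1a and Hspa1b hold the motif and were not called in the difference, while Dnaja1 holds it and was called higher. Bag3, Chordc1, Dnajb1 and Hsph1 do not hold it, and most of them were called higher. A link between the motif and the calls was not tested.

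Other stress-related lists gave fewer calls, mostly higher. Of 15 unfolded protein response genes 2 were higher, against 4.74% over all genes, a count of 4 without replicate 1 at 100 µg and 12 weeks, replicate 5 labelled saline at 12 weeks or replicates 1 or 2 at 100 µg and 2 weeks, of 5 without replicate 5 of 2-week saline and of 6 in DESeq2. Among them was Hspa5, the chaperone BiP of the endoplasmic reticulum, which averaged 461 ± 71.2 CPM with 100 µg and 385 ± 52.9 CPM labelled saline at 12 weeks, against 327 ± 46 and 456 ± 43 CPM at 2 weeks, a difference of 0.74 (SE 0.16, adjusted p = 0.0077, edgeR). Among 14 hypoxia-responsive genes 3 were higher and 1 lower, against 4.74% and 3.52% over all genes. Adm, the vasodilator peptide adrenomedullin, stood at 4.29, 4.54, 5.13, 5.27 and 5.78 CPM with 100 µg and at 4.76, 2.54, 4.93, 4.99 and 4.74 CPM labelled saline at 12 weeks. In the short model the values were 6.71, 7.17, 7.98, 6.58 and 7.15 CPM with 100 µg and 17.1, 18.1, 15.8, 17.9 and 9.85 CPM with saline, with no overlap. Its difference of 1.33 (adjusted p = 0.00539, edgeR) stood beside 12-week groups that overlapped. Egln3, an oxygen-sensing prolyl hydroxylase, was the lower one at -1.34, a call lost with the mitochondrial covariate and in 6 of the 20 fits that leave out 1 library. Among 16 glucocorticoid-responsive genes 3 were higher, including Errfi1, a feedback inhibitor of the EGF receptor, at 1.11 and Tsc22d3, the leucine zipper GILZ, at 1.04. Neither was called with the mitochondrial covariate. Tsc22d3 lost its call in 17 of those 20 fits, and Errfi1 in those without replicate 5 at 100 µg and 12 weeks (0.81), replicate 1 labelled saline at 12 weeks (1.03) and replicate 2 of 2-week saline (1.01). The list count of 3 was 0 in these last 3 fits, 1 with the mitochondrial covariate, and 1 in every other fit that leaves out 1 library but those without replicates 1 or 4 at 100 µg and 12 weeks, replicate 3 labelled saline at 12 weeks, replicate 1 at 100 µg and 2 weeks or replicates 3 or 5 of 2-week saline.

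Clock genes gave more calls in the 2-week effect than in the 12-week effect. The clock runs on the activators BMAL1 (gene Arntl) and CLOCK, which switch on their own repressors and the output factors that carry the rhythm to other genes. Dbp, such an output factor (ENSMUSG00000059824, chromosome 7, 45705088 to 45710203, plus strand, GRCm38), stood at 119, 221, 221, 122 and 176 CPM with 100 µg and at 65.1, 81.8, 154, 122 and 89.5 CPM labelled saline at 12 weeks. At 2 weeks it stood at 86.1, 106, 113, 107 and 128 CPM with 100 µg and at 14.8, 12.1, 12.2, 18.6 and 38.8 CPM with saline. The 2-week saline libraries, at 38.8 CPM or less, were all below the other 3 groups, at 65.1 CPM or more. Its effects were 0.75 at 12 weeks (adjusted p = 0.0885) and 2.47 at 2 weeks (adjusted p = 0.000214), a difference of -1.73 (SE 0.41, adjusted p = 0.0137, edgeR). Arntl went the other way, averaging 10.1 ± 2.76 CPM with 100 µg and 14.7 ± 3.78 CPM labelled saline at 12 weeks, against 22 ± 5.16 and 64.1 ± 11.9 CPM at 2 weeks, a difference of 1.00 (adjusted p = 0.03, edgeR) that was not called in 7 of the 20 fits that leave out 1 library, those without replicate 4 labelled saline at 12 weeks, replicates 3, 4 and 5 at 100 µg and 2 weeks and replicates 1, 2 and 3 of 2-week saline.

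By role, 1 of 5 activators was higher and 0 lower in the difference, and 1 of 10 repressors higher and 4 lower. Of 6 output factors 1 was higher and 2 were lower. All genes tested gave 4.74% higher and 3.52% lower. At 12 weeks 0 activators and 0 repressors were called in edgeR, with 4 and 5 at an unadjusted p under 0.05, 1 and 1 called in limma-voom and 2 and 1 in DESeq2. In edgeR 1 output factor was higher at 12 weeks. At 2 weeks 3 activators were lower, 6 repressors higher and 1 lower, and 5 output factors higher and 1 lower. Over all genes 8.36% were called in either direction at 12 weeks and 8.13% at 2 weeks. Among repressors Nr1d1, the nuclear receptor REV-ERB alpha, differed by -1.30 with effects of -0.01 and 1.29, Per3 by -0.98 with 0.35 and 1.33, and Bhlhe41, of the DEC family, by -1.27 with -0.04 and 1.23. Cry1, which represses late in the cycle, differed by 0.85 with 0.30 and -0.54. Of the output factors Hlf, a relative of Dbp, differed by -0.95 and Nfil3, which competes with Dbp for its sites, by 1.05. Bhlhe41, Hlf and Nfil3 lost their call in 12, 14 and 15 of the 20 fits that leave out 1 library. With the mitochondrial covariate the higher and lower calls were 1 and 0 among activators, 0 and 1 among repressors and 0 and 0 among output factors, and Arntl, Dbp, Nr1d1, Bhlhe41, Cry1, Hlf and Nfil3 were not called. The count of 4 lower repressors was 2 without replicates 2, 3 or 5 at 100 µg and 12 weeks, replicate 1 labelled saline at 12 weeks, replicates 3, 4 or 5 at 100 µg and 2 weeks or replicates 1, 2 or 3 of 2-week saline. The time of day of collection was not given in the sources used here.

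The activators bind the E-box CACGTG. It was found in 4 of 8 repressor promoters, in 1 of 5 output factor promoters, in 0 of 4 activator promoters and in 9.05% of the 12821. Promoters of Cry1 (chr10:85185055-85185304, minus strand) and Bhlhe41 (chr6:145865421-145865670, minus strand) are shown with the E-box in capitals, since these repressors were called in opposite directions and both hold it.
Cry1: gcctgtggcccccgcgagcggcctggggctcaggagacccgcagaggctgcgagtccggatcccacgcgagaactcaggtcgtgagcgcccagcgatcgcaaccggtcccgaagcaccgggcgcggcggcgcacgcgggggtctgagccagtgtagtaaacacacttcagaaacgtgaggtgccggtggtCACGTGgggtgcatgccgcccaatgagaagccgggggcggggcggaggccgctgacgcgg
Bhlhe41: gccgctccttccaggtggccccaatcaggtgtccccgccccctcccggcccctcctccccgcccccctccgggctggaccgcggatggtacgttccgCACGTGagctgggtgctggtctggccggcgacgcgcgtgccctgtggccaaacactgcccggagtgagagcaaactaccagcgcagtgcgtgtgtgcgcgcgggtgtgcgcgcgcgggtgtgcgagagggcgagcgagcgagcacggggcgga
The E-box starts 60 bases before the gene in Cry1 and 153 bases before it in Bhlhe41.

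**Figure D4:**
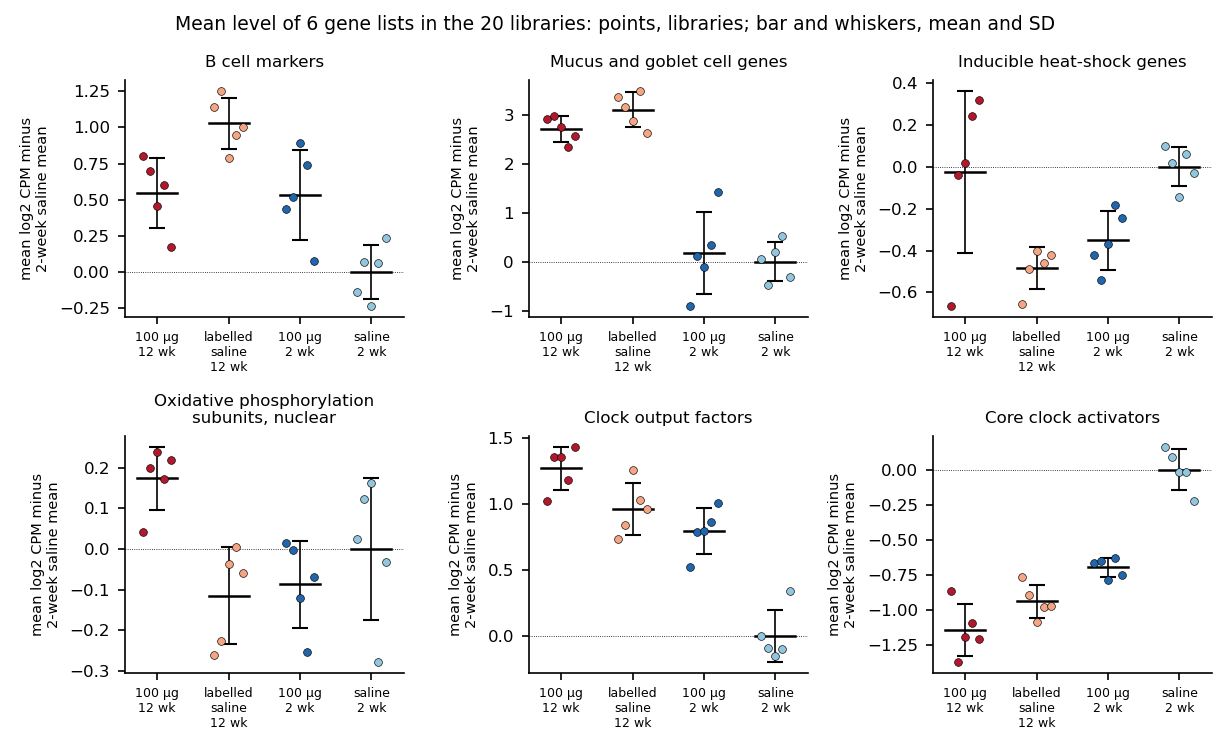
Each panel gives the mean log2 CPM of a list in the 20 libraries relative to the mean of 2-week saline, with points for libraries and bars for mean and SD. B cell markers are highest in the 12-week group labelled saline (0.79 to 1.25), and mucus genes are high in both 12-week groups. In the panels of clock activators and clock output factors the 2-week saline group lies apart from the other 3. For output factors its highest library is at 0.34 and the lowest 2-week 100 µg library at 0.52.

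Lists of remodelling genes had few calls, in both directions. Col1a1, the main chain of fibrillar collagen I (ENSMUSG00000001506, chromosome 11, 94936224 to 94953042, plus strand, GRCm38), stood at 717, 299, 345, 586 and 354 CPM with 100 µg and at 457, 676, 456, 707 and 594 CPM labelled saline at 12 weeks. The 2-week values were 113, 272, 137, 194 and 185 CPM with 100 µg and 101, 88.3, 97.8, 112 and 116 CPM with saline. The 12-week groups overlapped, and at 2 weeks all 100 µg libraries but replicate 1 lay above every saline one. The difference of -1.14 (SE 0.30, adjusted p = 0.0237, edgeR) was no longer called without replicate 3 (-1.06) or replicate 5 (-1.07) at 100 µg and 12 weeks, nor was it called with the mitochondrial covariate. Among 20 fibrillar collagen and cross-linking genes 2 were higher, the hydroxylase subunits P4ha1 at 0.84 and P4ha2 at 0.58, and Col1a1 was the 1 lower. Over all genes 4.74% were higher and 3.52% lower. Col3a1, which forms fibrils with collagen I, stood at -0.35 (95% interval -0.80 to 0.10, adjusted p = 0.313, edgeR). Col15a1, of basement membrane zones, differed by -1.10 with effects of -0.32 and 0.78, the 1 call among 21 other collagens.

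Other matrix and growth factor lists had at most 3 calls each in either direction. Of 18 genes of the TGF-beta pathway 1 was lower, of 13 protease inhibitors 1 was lower, of 21 matricellular proteins and proteoglycans 1 was higher and 2 were lower, of 20 matrix proteases 1 was higher and of 17 elastic fibre genes 1 was higher, against 4.74% higher and 3.52% lower over all genes. Timp1, an inhibitor of matrix metalloproteinases, averaged 16.6 ± 7.06 CPM with 100 µg and 30.9 ± 13.2 CPM labelled saline at 12 weeks, against 6.33 ± 0.837 and 3.95 ± 1.47 CPM at 2 weeks, a difference of -1.49 (SE 0.42, adjusted p = 0.029, edgeR). Tgfb1, the fibrogenic growth factor, differed by -0.85 with effects of -0.31 and 0.54, the 1 call of its pathway, and Ccn4, a matricellular protein induced by Wnt signalling, by -1.04. Timp1 and Tgfb1 lost their calls in 5 and 9 of the 20 fits that leave out 1 library, and Ccn4 with the mitochondrial covariate, as did Vegfc and P4ha2. Vegfc, the growth factor of lymphatic vessels, was higher at 0.86, and with Pdgfra was among 3 of 23 growth factor genes and receptors called higher. Acta2, the actin of smooth muscle and myofibroblasts, stood at 0.14 (95% interval -0.29 to 0.57, adjusted p = 0.714, edgeR), and Fn1, fibronectin, at -0.80 (95% interval -1.49 to -0.11), which was -1.08 and called without replicate 4 at 100 µg and 12 weeks.

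**Figure D5:**
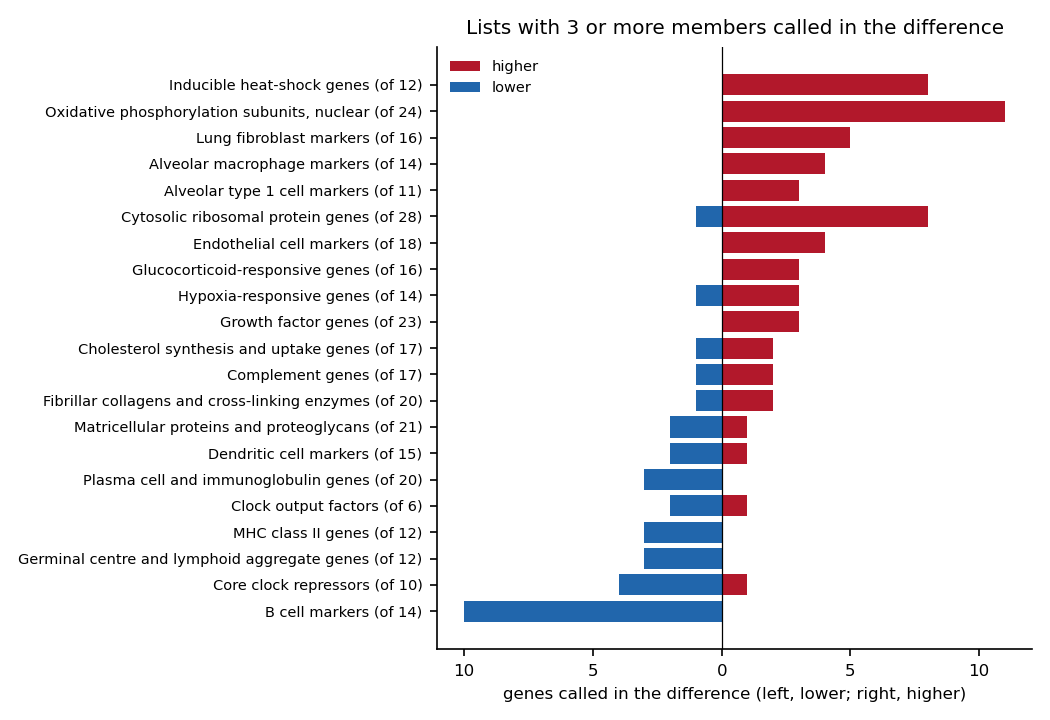
Bars count the genes of a list called in the difference, higher to the right and lower to the left, for the 21 lists with at least 3 calls, each with its number tested. Heat-shock genes (8 of 12) and nuclear oxidative phosphorylation genes (11 of 24) lie at the top and B cell markers (10 of 14) at the bottom. Over all genes 4.74% were called higher and 3.52% lower.

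Type 2, mucus and macrophage activation genes were not called in the difference, with wide intervals. Mucus and goblet cell genes had 0 calls of 15 in edgeR, with 7 at an unadjusted p under 0.05 and 1 call each in limma-voom and DESeq2, and a median of -1.23, with effects of -0.46 and 0.91 at 12 and 2 weeks, and all 15 had a negative difference. Without replicate 1 at 100 µg and 2 weeks 4 were called lower, without replicates 3 or 5 labelled saline at 12 weeks or replicate 4 of 2-week saline 2, without replicates 1 or 2 at 100 µg and 12 weeks or replicate 3 at 100 µg and 2 weeks 1, and with the mitochondrial covariate 0. Muc5ac stood at -1.99 (95% interval -3.39 to -0.60, adjusted p = 0.0649) and Muc5b, the constitutive airway mucin, at -1.58 (95% interval -2.81 to -0.34, adjusted p = 0.0976), both in edgeR. Muc5ac was called without replicate 2 at 100 µg and 12 weeks (-2.46), replicates 3 or 5 labelled saline at 12 weeks (-2.14 and -2.21), replicate 1 at 100 µg and 2 weeks (-2.29) or replicate 4 of 2-week saline (-2.29), and Muc5b without replicate 1 at 100 µg and 2 weeks (-1.89). At 2 weeks Muc5b ran from 15.9 to 267 CPM with 100 µg, wider than the 29.1 to 89.2 CPM with saline. Of 17 alternatively activated macrophage genes 0 were called in edgeR (median -0.29), with 6 at an unadjusted p under 0.05, 0 calls in limma-voom and 1 in DESeq2. Retnla stood at -0.29 (95% interval -1.09 to 0.52) and Chil3, a chitinase-like protein, at 0.91 (95% interval -0.13 to 1.95). Of 17 type 2 cytokine and receptor genes 0 were called in edgeR, with 2 at an unadjusted p under 0.05 and 1 call each in limma-voom and DESeq2, and the alarmin gene Il33 stood at 0.20 (95% interval -0.25 to 0.65). The eotaxin genes Ccl11 and Ccl24 stood at -0.60 (95% interval -1.33 to 0.13) and -2.02 (95% interval -3.98 to -0.05), and Ighg1 at -2.25 (95% interval -5.39 to 0.85). Ccl24 was called without replicate 3 labelled saline at 12 weeks, at -2.35. Sftpc and Scgb1a1, with 0.35 (95% interval -0.11 to 0.82) and 0.18 (95% interval -0.55 to 0.91), were not called either.

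Called genes also differed from the rest in features that the comparison did not use. Of genes called higher 95.6% were protein-coding and of genes called lower 79.5%, against 77.6% of all tested. Median GC content was 46.8% and 52.9% in the called groups and 49.8% in all, and the median length of the longest transcript was 2927 and 4343 bases, against 3348. Over 5 equal classes of protein-coding genes from low to high GC content, the share called higher was 8.33, 8.33, 6.62, 4.33 and 1.61%, and the share called lower was 1.44, 2.69, 3.54, 4.46 and 5.9%. By rising transcript length the share called higher was 8.56% in the shortest and 2.88% in the longest class, and that called lower was 1.41 and 6.33%. From the lowest to the highest GC class the median effect rose from -0.07 to 0.19 log2 at 12 weeks and from -0.17 to 0.24 at 2 weeks. From the shortest to the longest class it fell from 0.19 to -0.07 at 12 weeks and stood at -0.0086 and -0.0079 at 2 weeks. Calls were spread over the chromosomes, with 6.67 to 9.68% of tested genes called on each autosome and on chromosome X. When library offsets for GC content and length were added, an alternative chosen after seeing the data, 2358 genes were called, 1453 of them among the 1624, and these calls included 10 lower B cell markers, 8 higher heat-shock genes and 11 higher oxidative phosphorylation genes, of which 10, 8 and 9 were also called without the offsets. The part of GC content and length in single calls was not tested.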

How the data were processed

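Lung lobes were profiled by RNA sequencing, with libraries made by the TruSeq Stranded Total RNA kit per the labels' protocols. The authors deposited 1 table of raw counts for 55421 genes and 25 libraries. Per the submitters' processing notes, STAR 2.5.3a and the GRCm38 build were used, while neither the counting tool and its strand option nor the gene annotation is given in the sources used here. The table had 0 columns of no sample. Gene names and coordinates came from GENCODE annotation of GRCm38, and promoters from RefSeq (GRCm38.p6).

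Groups were taken from the labels. Genes were filtered with filterByExpr and libraries scaled by TMM (trimmed mean of M) in edgeR 4.0.16 (R 4.3.3). All 25 libraries entered 1 quasi-likelihood fit of group means, and each contrast was adjusted by Benjamini-Hochberg over the 19654 genes and called at 0.05. An SE is the unshrunk log2 estimate divided by the square root of its F statistic, and intervals are 95%. CPM are counts per 1000000 of the scaled library size. The edgeR test of the difference was also run on simulated counts with known differences. Those counts held no libraries with expression apart from their group and no mitochondrial or GC trends. That run therefore cannot show how such features act on the calls here. Alternatives were other scaling, filters, limma-voom (limma 3.58.1), DESeq2 1.42.0, the 20 libraries alone, the replicate number as a block, removal of mitochondrial and ribosomal RNA genes, each library left out, and, chosen after seeing the data, the mitochondrial share as a covariate and offsets for GC content and length.

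Named genes were the 12 largest called differences in each direction with a mean of at least 1 CPM in a group. With the same limit, of genes with opposite called effects the 6 of each orientation were taken whose smaller absolute effect was largest. A panel of 31 genes was added. Up to 4 members of each of 61 gene lists came from those with the smallest p in the difference, called or not. Predicted genes and antigen receptor segments were left out, and 1 gene that the rule names is not reported here. The members and lists were chosen with earlier results of these data known. A list's level is the mean over members of log2(CPM + 0.5). Lists are described by counts and medians, and no set test was made. Total counts limit precision most in the shallowest library, of 7231128 counts.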

Additional observations from a re-analysis of the deposited data

Results flagged for a closer look

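Single libraries that stood far from the other 4 of their group were found in 33 of 384 groups of values, 8.59%, where chance gives about 1 in 20. The libraries with the most such values were replicate 3 labelled saline at 12 weeks and the shallow replicate 4 of 2-week saline, with 5 each. Replicate 3 labelled saline at 12 weeks was high for Fabp1 (2.79 CPM), Fpr2 (5.72 CPM), Fpr1 (7.37 CPM), Inmt (624 CPM) and Tek (298 CPM). Replicate 4 of 2-week saline was high for its mitochondrial share (9.8%), Bcl11a (16.2 CPM), Muc5ac (4.37 CPM) and Ccl11 (5.47 CPM) and had Ksr2 at 0.0 CPM.

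Replicate 5 of 2-week saline stood apart in the clock genes Arntl (42.9 CPM), Per3 (30.6 CPM) and Dbp (38.8 CPM), each nearer to the 100 µg group, and in Adm (9.85 CPM). Replicate 2 of the same group stood apart in Fgg (1.6 CPM), Gpihbp1 (172 CPM) and Rpl5 (305 CPM), and replicate 1 in Cox4i1 (105 CPM). Among the 2-week 100 µg libraries, replicate 1 was high for Gpihbp1 (129.8 CPM), Ndufb3 (36.6 CPM) and Tek (497 CPM), and replicate 5 for Mucl1 (0.918 CPM).

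In the 12-week 100 µg group replicate 1 was low for Tomm7 (31.7 CPM) and Rpl5 (233 CPM) and high for Trac (22.1 CPM). Replicate 2 was high for Ighd (68.6 CPM), Muc5ac (112.5 CPM) and Hbb-bt (346 CPM), and replicate 5 for Fpr2 (11.2 CPM). Of those labelled saline at 12 weeks, replicate 2 stood apart in its total (44.2, in units of 1000000 counts), in Hspd1 (117.6 CPM) and in Adm (2.54 CPM), and replicate 5 in Ciita (163 CPM).

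The 80 named genes called in the difference had unequal effects in both models by the test of the difference itself in edgeR. A negative difference means that the effect, not the level, was lower at 12 weeks than at 2 weeks. Negative log2 differences were -3.70 for Ccl28, -3.02 for Ksr2, -2.91 for Mucl1, -2.43 for Ceacam19 and -2.28 for Foxp3. Next were -2.17 for Hsd11b2, -2.14 for Dnase1l3, -2.13 for Nos2, -1.97 for H1fx, -1.96 for Rps16 and -1.86 for Sox9. Lymphocyte and antigen presentation genes followed with -1.62 for Bcl11a, -1.60 for Ighm, -1.42 for Spib, -1.31 for Fcer2a, -1.25 for Ighd, -1.21 for Cr2, -1.18 for Fcmr, -1.16 for Ccl22, -1.13 for Fscn1, -1.06 for Fcrl1, -0.89 for Trac, -0.88 for Il2ra and -0.68 for Ciita. The remaining negative ones were -1.73 for Dbp, -1.56 for Mypopos, -1.49 for Timp1, -1.34 for Egln3, -1.30 for Nr1d1, -1.27 for Bhlhe41, -1.14 for Col1a1 and Zfp831, -1.10 for Col15a1, -1.04 for Ccn4, -0.98 for Per3, -0.95 for Hlf and -0.85 for Tgfb1.

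Positive differences were 2.36 for Fabp1, 2.27 for Fgg, 2.23 for Asgr1, 2.18 for Cst8, 2.13 for Ear1, 2.12 for Serpina3m, 2.02 for Lrat, 1.99 for Krt79, 1.94 for Fpr2, 1.93 for Fpr1, 1.87 for Otc and Zfp970, 1.45 for Il18 and 0.73 for Plet1. Lung wall genes gave 1.40 for Inmt, 1.02 for Hopx, 0.93 for Gpihbp1, 0.87 for Cldn5, 0.86 for Vegfc, 0.76 for Tek, 0.69 for Cav1, 0.61 for Pdgfra, 0.84 for P4ha1 and 0.58 for P4ha2. Stress and clock genes gave 1.33 for Adm, 1.11 for Errfi1, 1.05 for Nfil3, 1.04 for Tsc22d3, 1.00 for Hsp90aa1 and Arntl, 0.97 for Hspb1, 0.92 for Hspa8, 0.85 for Cry1, 0.74 for Hspa5 and 0.61 for Hspd1. Mitochondrial, ribosomal and other genes gave 0.90 for Chchd2, 0.89 for Tomm7, 0.80 for Gcdh and Sowahc, 0.69 for Cox4i1, 0.65 for Ndufb3, 0.64 for Rpl22 and 0.51 for Rpl5.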

How the results depend on the processing

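The difference gave 919 calls with no filter on low counts, 2459 with DESeq2 and 978 with only the 20 libraries fitted, and 777 to 2602 when 1 library was left out. The 12-week effect gave 3072 calls with limma-voom, 2931 with DESeq2, 459 with only the 20 libraries, 0 in edgeR with the mitochondrial share as a covariate (3267 genes at an unadjusted p under 0.05) and 0 to 3500 when 1 library was left out. The 2-week effect gave 723 calls with no filter, 886 with only the 20 libraries, 4450 with the mitochondrial share, 712 with the offsets for GC content and length and 611 to 2085 when 1 library was left out. For each count the cause was not tested. Other scaling (1527 calls), a stricter filter (1679), limma-voom (1947) and removal of mitochondrial and ribosomal RNA genes (1513) kept the count of the difference within 1.5 times.

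The labels do not say that replicate numbers pair mice. Correlations of same-numbered deviations lay between -0.147 and 0.366, which cannot tell whether mice were paired. With the replicate block the difference had 1255 calls. Of 80 named genes called, 0 changed sign in an alternative, 30 were called in every alternative and 26 lost the call in at least 1 fit that leaves out a library. Of 14 named genes not called, 5 were called in some alternative. Differences without a call changed sign for Acta2 (-0.073) and Sftpc (-0.12) with the mitochondrial share. When 1 library was left out, Acta2 ran from -0.021 to 0.21 and Scgb1a1 from -0.064 to 0.30.

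Depth limited genes at under 1 CPM in the shallow 2-week saline library of 7231128 counts, and the labels of the 12-week saline libraries limit every direction drawn against them. The sources used here give no collection time, litter or cage.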

Other observations

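Cell division genes were mostly negative in the difference without passing the test, with 22 of 24 below 0, a median of -0.54 and 1 call, lower. That count was 5, 3 and 2 without replicate 4 at 100 µg and 12 weeks, replicate 3 labelled saline at 12 weeks and replicate 2 of 2-week saline, and 0 with the mitochondrial share as a covariate. Their median effects were -0.51 at 12 weeks, where 3 were lower, and -0.0043 at 2 weeks. Immediate early genes had 0 calls of 19 in edgeR in the difference, with 5 at an unadjusted p under 0.05 and 0 calls in limma-voom and DESeq2, although 6 were higher at 12 weeks and 1 at 2 weeks. Xenobiotic metabolism genes and cholesterol genes were higher at 12 weeks in 5 of 20 and 6 of 17, and at 2 weeks in 2 and 3, with 1 xenobiotic gene lower at 2 weeks. The shares called in either direction over all genes were 8.36% at 12 weeks and 8.13% at 2 weeks. In the difference 1 xenobiotic gene was higher, and 2 cholesterol genes were higher and 1 lower. Over all genes 4.74% were higher and 3.52% lower in the difference.

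Lists for neighbouring tissues and blood gave few calls, against 4.74% higher and 3.52% lower over all genes. Red cell genes had a median difference of 1.23 and 0 calls of 10 in edgeR, with 5 at an unadjusted p under 0.05, 0 calls in limma-voom and 1 in DESeq2, and 2 were higher at 12 weeks. Relative to the 2-week saline mean, replicate 2 at 100 µg and 12 weeks stood at 1.10 log2 and the other 4 of its group at -1.32 to -0.30, and without it the median was 0.47. Without replicates 1 and 4 of that group 3 and 2 red cell genes were called higher, and 1 without replicate 3 labelled saline at 12 weeks, replicate 1 at 100 µg and 2 weeks or replicate 4 of 2-week saline. Heart muscle and pulmonary vein genes had a median of -0.30 and 0 calls of 12 in edgeR, limma-voom and DESeq2, with 0 at an unadjusted p under 0.05. Thymus genes had 1 call of 6, lower, beside a median of 0.65, and the same replicate 2 stood at 1.21 log2 and the other 4 of its group at -0.31 to 0.12. Without it the median was -0.000636 and 0 were called. The call was also lost without replicates 3 or 5 at 100 µg and 12 weeks, replicates 1 or 2 labelled saline at 12 weeks, replicate 4 at 100 µg and 2 weeks or replicates 1 or 2 of 2-week saline. Liver and plasma protein genes had 1 call of 6, higher.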
